A study of Mus musculus with 12 samples.

Results

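Small nucleolar RNAs (snoRNAs) were measured by 107 of the 25428 probe sets on an Affymetrix mouse expression array, taken as every row whose gene symbol begins with Snord, Snora or Scarna. They comprised 65 box C/D snoRNAs (Snord), 34 box H/ACA snoRNAs (Snora) and 8 small Cajal body RNAs (Scarna). All 107 were found in a RefSeq gene table, which typed 98 as snoRNA, 8 as guide RNA and 1, Snord73b, as small nuclear RNA. The 12 arrays carried RNA of primary mouse liver sinusoidal endothelial cells, each from livers of 3 mice, enriched with beads against CD146 after collagenase digestion and a density gradient. There were 6 Control arrays, and 6 arrays from mice called NICD-OE-HEC, which carried Clec4g-Cre(tg/wt) together with the Rosa26-N1ICD-IRES-GFP allele. In these mice Cre under Clec4g control in hepatic endothelium switches on the Notch1 intracellular domain, the active nuclear fragment of this receptor. The labels give the Control genotype only as Ctrl. Whether Control mice carried either allele was not stated in the labels, nor were age and sex. The comparison asks how snoRNA levels differ when Notch signalling is forced on in these cells.

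A snoRNA is a short noncoding RNA that works inside a protein complex in the nucleolus. Box C/D snoRNAs pair with ribosomal RNA and direct methylation of the ribose, with fibrillarin (Fbl) as the methyltransferase. Box H/ACA snoRNAs direct the conversion of uridine to pseudouridine, with dyskerin (Dkc1) as the enzyme, and Scarna RNAs guide the same reactions on spliceosomal RNAs in Cajal bodies. A few members of both nucleolar classes serve instead in cutting the ribosomal RNA precursor. In mammals most are not transcribed on their own: they lie in introns of host genes, often ribosomal protein genes or noncoding RNAs named Snhg, and are trimmed from the spliced intron. A probe inside a snoRNA cannot tell the mature RNA from the host's unspliced precursor.

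By RefSeq's gene spans, 97 of the 107 members lay inside 1 gene and 6 inside 2 genes. Snord89, Snord118, Snord13 and Scarna2 lay inside none. Of the members, 32 lay in 21 ribosomal protein genes. The annotated lengths of the classes overlapped, with box C/D members from 45 to 221 bases (median 68), box H/ACA members from 61 to 205 (median 121) and Scarna members from 42 to 275 (median 118). RefSeq windows from 250 bases before to 50 after the start of the host genes were searched for TGGGAA on both strands, the core motif of Rbpj, the DNA-binding partner of the Notch intracellular domain. Among all windows 25.6% held it (8397 of 32851), against 30.6% of the windows of host genes (22 of 72, from 67 of the 82 hosts). The palindromic E-box CACGTG stood in 7.15% of all windows and in 16.7% of host windows (12 of 72). These matches describe letters and were not measured as binding sites.

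The windows of Snhg12 and Snhg18, noncoding hosts that between them hold 3 of the 7 snoRNAs that passed the test below, are shown in gene orientation, 5′ to 3′, from GRCm38.p6. They were picked by hand and do not stand for the 72 host windows, of which 22 held TGGGAA. The window of Snhg6, a noncoding gene that holds the called Snord87, is not shown. Snhg12 lies at chr4:132308428-132308727 on the plus strand and Snhg18 at chr15:32244613-32244912 on the minus strand. Capitals mark TTCCCA, the reverse complement of TGGGAA, whose first base lies at -89 from the start in Snhg12 and at -12 in Snhg18.
Snhg12: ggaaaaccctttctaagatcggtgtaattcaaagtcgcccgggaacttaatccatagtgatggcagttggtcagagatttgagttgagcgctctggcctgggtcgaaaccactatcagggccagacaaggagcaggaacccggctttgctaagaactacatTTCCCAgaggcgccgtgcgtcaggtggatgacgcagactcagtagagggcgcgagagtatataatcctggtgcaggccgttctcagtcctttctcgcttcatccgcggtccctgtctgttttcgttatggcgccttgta
Snhg18: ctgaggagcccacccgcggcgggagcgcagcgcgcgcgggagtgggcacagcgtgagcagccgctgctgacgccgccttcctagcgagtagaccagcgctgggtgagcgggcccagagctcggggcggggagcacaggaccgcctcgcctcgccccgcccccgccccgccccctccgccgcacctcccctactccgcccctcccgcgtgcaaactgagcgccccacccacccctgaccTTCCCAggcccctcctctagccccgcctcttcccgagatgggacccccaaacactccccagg

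Values are log2 expression after RMA, which gave every array nearly the same distribution, with a median of 3.67 and a maximum of 13.44. A change of most transcripts in one direction would therefore not show. No detection calls came with the values, so the array median is used as the reference level, and a value below it cannot be separated from background. Probe sets differ in how well they hybridise, so a level is compared between arrays for the same probe set, and a higher value of one probe set than of another does not show a more abundant RNA. Within a group, arrays correlated with each other at 0.976 to 0.992. In NICD-OE-HEC the Notch target Hey1 rose by 2.70 (SE 0.16), and Notch1 itself, whose probe set need not lie in the transgene, differed by 0.19 (limma adjusted p = 0.486). Over 12 sinusoidal endothelial markers the mean level was 11.04 to 11.31 on Control arrays and 10.60 to 10.81 on NICD-OE-HEC arrays. Of these markers 9 were called lower and 2 higher, and all 12 lay above the array median in both groups.

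Control 3 and Control 4 were low and Control 2 was high among the controls for snoRNAs. Against the median of the other controls, Control 3 was lower for 95 of the 107 members and Control 4 for 100. Control 4 was the lowest control for 73 members and Control 3 for 20. The mean over all 107 members was 6.88 on Control 3 and 6.67 on Control 4, against 7.26 to 7.77 on Control 1, 2, 5 and 6. It was 7.37 to 7.82 on the NICD-OE-HEC arrays. The mean over all probe sets was 4.17 on every array. RMA sets it so, and it does not show whether other RNAs were low on Control 3 and 4. Control 2 had the highest mean, 7.77, and lay below the median of the other controls for 13 members. It also stood apart over all probe sets, at -48.5 on the second principal component against 2.62 to 10.6 for the other controls. NICD-OE-HEC 4 lay on the same side, at -30.3, against -8.51 to 22.3 for the other NICD-OE-HEC arrays. Results are therefore given with and without Control 3 and 4, a choice made after the values were seen, and the class results also without Control 2.

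**Figure D1:**
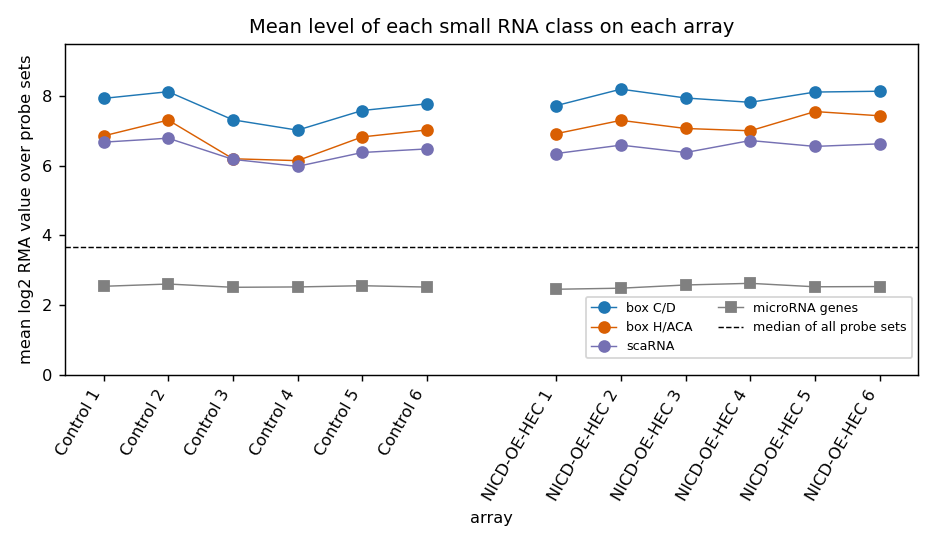
Mean log2 RMA value (vertical axis) of 65 box C/D, 34 box H/ACA and 8 Scarna probe sets and of 535 microRNA genes on each of the 12 arrays (horizontal axis); the dashed line is the array median of 3.67. Control 3 and 4 hold the lowest means of all 3 snoRNA classes. The means of microRNA genes lie between 2.45 and 2.62, below the array median, where values cannot be separated from background.

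SnoRNA probe sets were mostly bright. Of the 107 members, 93 had a mean over all arrays above the array median, against 92 of 535 microRNA genes. By class these were 56 of 65 box C/D members, 31 of 34 box H/ACA members and 6 of 8 Scarna members. In Control 55 box C/D members lay above the median (84.6%), and in NICD-OE-HEC 57 (87.7%). For box H/ACA the count was 31 of 34 in both groups, and for Scarna 6 of 8 in both. The number of members above the median on single arrays ran from 90 to 96 in Control and from 92 to 97 in NICD-OE-HEC, so those ranges overlapped. The box C/D probe sets with the highest values, which do not order the RNAs by abundance, were those of Snord32a, Snord100, Snord33, Snord15b and Snord87. Snord32a and Snord33, which guide ribosomal RNA methylation from introns of Rpl13a, had means over all arrays of 12.63 and 12.17. The box H/ACA probe sets with the highest values were those of Snora47, Snora16a, Snora21, Snora73b and Snora44, between 9.91 and 10.32.

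Most members had higher means in NICD-OE-HEC than in Control, but few passed the test. The difference was above 0 for 98 of 107 members, 60 of 65 box C/D, 33 of 34 box H/ACA and 5 of 8 Scarna, against 46.7% of all probe sets. Members moved together on single arrays, so they are not separate observations. Control 3 was below the median of the other controls for 95 of them and Control 4 for 100. With limma's test and Benjamini-Hochberg adjustment over all probe sets, 7 members rose at an adjusted p under 0.05 and 0 fell. That is 6.54% of the members, beside 4.89% of all probe sets that rose, 5.59% that fell and 10.5% called in both directions, so the share of members called was near the background. Of the 93 members above the array median 7.53% were called. Of all 12759 probe sets above it 19.0% were called, 1097 higher and 1325 lower. At an unadjusted p under 0.05, 31 members were higher and 0 lower, against 9.93% and 11.8% of all probe sets. The groups did not overlap for 1 member, Snord89, against 6.68% of all probe sets in both directions and 2.98% in the higher direction. The count of called members rested on single arrays: it was 3 without Control 3, Control 4, NICD-OE-HEC 3 or NICD-OE-HEC 6, 15 without NICD-OE-HEC 1 and 29 without Control 2. In fits without 1 array the whole array had 2107 to 2970 calls.

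Box C/D members had a median difference of 0.34 and box H/ACA members of 0.50 on the log2 scale. The median was 0.14 for Scarna, -0.01 for microRNA genes and -0.01 for all probe sets. Of the box C/D members 4 rose (6.15%), of the box H/ACA members 3 (8.82%) and of the Scarna members 0, beside 4.89% of all probe sets. The count higher at an unadjusted p under 0.05 was 17 of 65, 14 of 34 and 0 of 8, beside 9.93% of all probe sets. Differences among all members ran from -0.22 for Snord8 to 1.41 for Snord89. The mean of the box C/D probe sets was 7.63 ± 0.41 in Control and 7.99 ± 0.19 in NICD-OE-HEC (SD, n = 6 each). That of the box H/ACA probe sets was 6.73 ± 0.46 and 7.22 ± 0.25, and that of the Scarna probe sets 6.42 ± 0.30 and 6.54 ± 0.15. The ranges of single arrays overlapped in every class. Box C/D means spanned 7.02 to 8.13 in Control and 7.73 to 8.20 in NICD-OE-HEC, and box H/ACA means 6.15 to 7.31 and 6.92 to 7.56.

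Without Control 3 and 4, 1 member was called, Snord89, and 81 of 107 had a difference above 0. The median difference then was 0.10 for box C/D, 0.20 for box H/ACA, -0.03 for Scarna and -0.02 for all probe sets. At an unadjusted p under 0.05, 10 members were higher. The share of all probe sets at that threshold in this fit is not given, so the count of 10 has no background beside it. The whole array had 1613 calls in that fit in place of 2666. With 4 Control arrays the precision is also lower. Without Control 2 instead, 29 members were called higher (15 box C/D, 13 box H/ACA and 1 Scarna) and 98 had a difference above 0. The medians were then 0.48 for box C/D, 0.64 for box H/ACA and 0.21 for Scarna, and the whole array had 2970 calls.

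**Figure D2:**
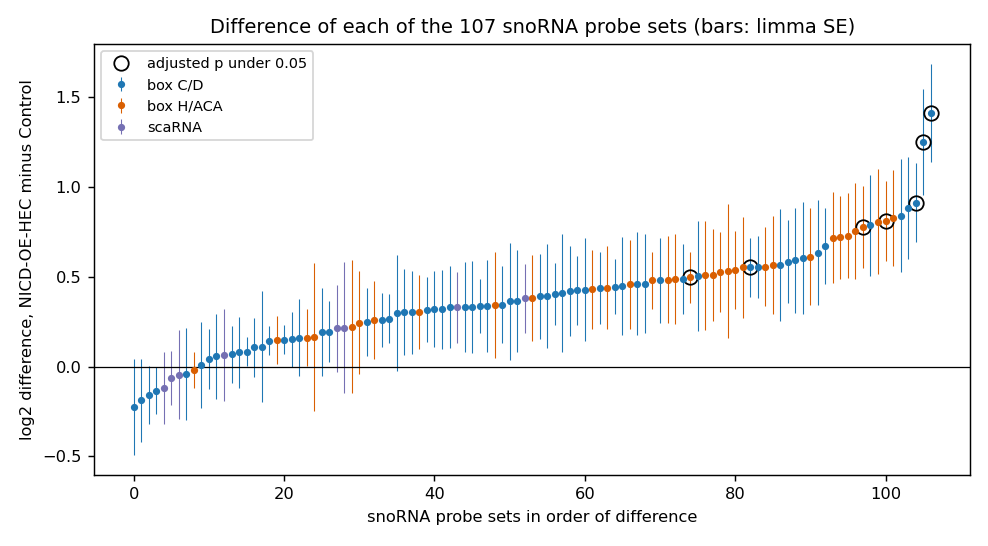
Difference NICD-OE-HEC minus Control on the log2 scale (vertical axis) for the 107 snoRNA probe sets in order of difference (horizontal axis), coloured by class, with bars of 1 limma SE and circles around the 7 called members. Of the points 98 lie above 0 and 9 below.

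Among the 93 members above the array median the median difference was 0.43, and among the 14 at or below it 0.12. The replicate spread also differed between the groups. The SD was larger in Control than in NICD-OE-HEC for 85 of 107 members, with a median SD of 0.54 against 0.34, whereas over all probe sets the median SD was 0.20 in both groups. In the map of deviations the lowest Control values stood mostly on Control 3 and 4. Among the NICD-OE-HEC arrays, NICD-OE-HEC 1 was the lowest array of its group for 42 members.

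**Figure D3:**
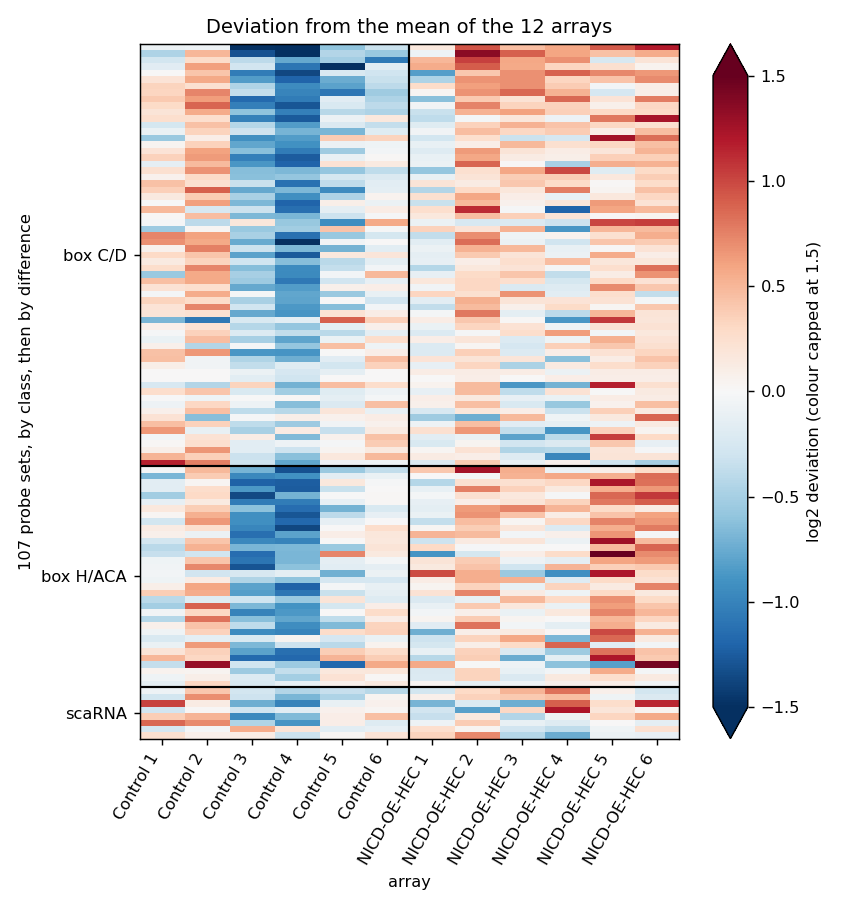
Deviation of each member (rows, grouped by class and ordered by difference) from its own mean over the 12 arrays (columns), on the log2 scale with colours capped at 1.5. The columns of Control 3 and Control 4 are blue over most box C/D and box H/ACA rows, and Control 4 is the lowest control for 73 of the 107 rows.

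Snord89, a box C/D RNA, had the largest difference. Its values ran from 5.04 to 6.61 in Control (median 6.22) and from 6.85 to 7.88 in NICD-OE-HEC (median 7.44). Every NICD-OE-HEC array was above every Control array. It rose by 1.41 (SE 0.27), 2.66-fold on the linear scale, with limma adjusted p = 0.00292. Without Control 3 (5.21) and Control 4 (5.04) the difference was 0.98 with limma adjusted p = 0.00624. It held its call in all alternatives run. Its neighbours in the RefSeq table include Cnot11 and Rnf149, and neither span holds it. Rnf149, a ubiquitin ligase gene, rose by 0.79 (SE 0.15, limma adjusted p = 0.003), and Cnot11, of the deadenylase complex, differed by -0.07.

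Snord123, a box C/D RNA inside the noncoding gene Snhg18, came next. It lay between 4.13 and 6.14 in Control (median 5.13) and between 5.56 and 6.99 in NICD-OE-HEC (median 6.21). Only Control 2, at 6.14, reached the NICD-OE-HEC range. Snord123 rose by 1.25 (SE 0.30), 2.38-fold, with limma adjusted p = 0.0119. Without Control 3 and 4 the difference was 0.86 and the call was lost (limma adjusted p = 0.0753). Its host Snhg18 rose by 0.41 (SE 0.11, limma adjusted p = 0.0208), from 3.34 to 3.75. All 6 Control arrays and 3 of the NICD-OE-HEC arrays lay below the array median for Snhg18, so the size of its difference is not exact.

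Snord91a, a box C/D RNA whose position lies inside both Tsr1, a ribosome maturation factor, and Srr, serine racemase, was dim. It ran from 2.85 to 4.19 in Control (median 3.46), mostly below the array median, and from 3.67 to 4.94 in NICD-OE-HEC (median 4.46). Control 2, at 4.19, was above NICD-OE-HEC 5 (3.67) and NICD-OE-HEC 6 (4.10), and the other controls were below every NICD-OE-HEC array. Snord91a rose by 0.91 (SE 0.22, limma adjusted p = 0.0138), a size that is not exact because the Control level cannot be told from background. It was 0.85 without Control 3 and 4, with limma adjusted p = 0.0798. Tsr1 differed by 0.32 (limma adjusted p = 0.093) and Srr by -0.15 (limma adjusted p = 0.345).

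Snord87, a box C/D RNA in the noncoding gene Snhg6, had a bright probe set. It ran from 10.99 to 12.02 in Control (median 11.44) and from 11.63 to 12.16 in NICD-OE-HEC (median 12.03). The ranges overlapped through Control 2. It rose by 0.55 (SE 0.16), 1.47-fold, with limma adjusted p = 0.0420. Snhg6 rose more, by 0.91 (SE 0.17, limma adjusted p = 0.002). The span of Mcmdc2 also holds Snord87, and Mcmdc2 lay at 1.62 in Control and 1.61 in NICD-OE-HEC, below the array median.

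Of the box H/ACA members, Snora47, inside Zbed3, had the largest called difference. Its values ran from 9.36 to 10.70 in Control (median 9.90) and from 10.29 to 11.16 in NICD-OE-HEC (median 10.85). Control 2 was the only Control array inside the NICD-OE-HEC range. It rose by 0.81 (SE 0.22, limma adjusted p = 0.0295), whereas Zbed3 differed by 0.05 (SE 0.13, limma adjusted p = 0.884).

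Snora16a and Snora61 share the noncoding host Snhg12. Snora16a ran from 9.08 to 10.58 in Control (median 10.08) and from 10.21 to 11.08 in NICD-OE-HEC (median 10.77). Snora61 ran from 4.31 to 5.02 and from 4.71 to 5.45, with medians of 4.66 and 5.16. The groups overlapped for both RNAs. Snora16a rose by 0.78 (SE 0.23, limma adjusted p = 0.0417) and Snora61 by 0.50 (SE 0.14, limma adjusted p = 0.0372). The other members inside Snhg12, Snora44 and Snord99, differed by 0.72 and 0.58 and were not called (limma adjusted p = 0.0637 and 0.142). Snhg12 rose by 0.91 (SE 0.19, limma adjusted p = 0.0042), from 5.04 ± 0.38 to 5.95 ± 0.34 (SD, n = 6 each).

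Snord87, Snora47, Snora16a and Snora61 each lost the call in 8 or 9 of the alternatives, among them the fits without Control 3, without Control 4 and without both. Without both, their differences were 0.44, 0.55, 0.45 and 0.36, with limma adjusted p from 0.190 to 0.223.

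**Figure D4:**
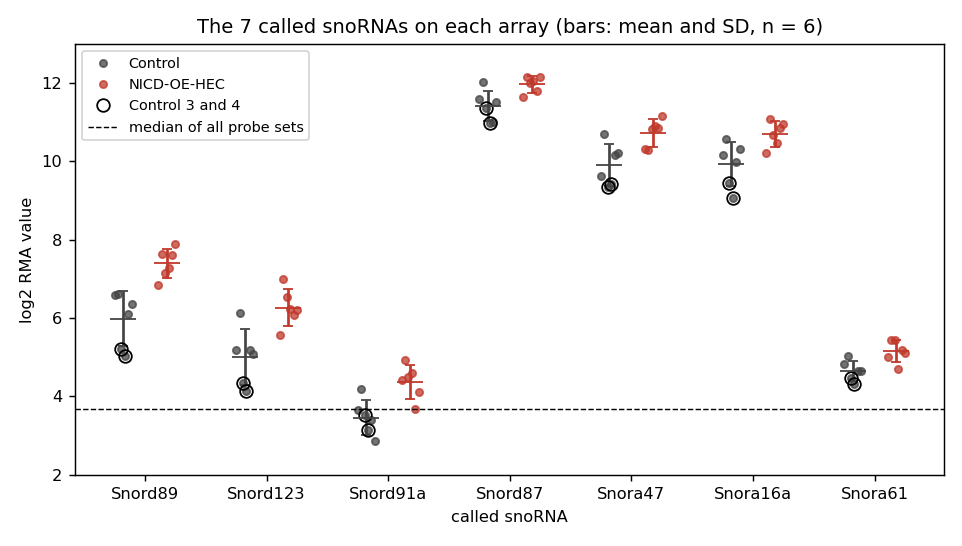
Log2 RMA value (vertical axis) of the 7 called snoRNAs (horizontal axis) on the 6 Control and 6 NICD-OE-HEC arrays, with group mean and SD; open circles mark Control 3 and 4 and the dashed line is the array median. Only for Snord89 do all 6 NICD-OE-HEC arrays lie above all Control arrays, 6.85 against 6.61 at the nearest.

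Several members had differences in the range of the called ones but did not pass the test. Snord45b, a box C/D RNA in Rabggtb, ran from 4.16 to 6.32 in Control and from 5.76 to 6.61 in NICD-OE-HEC, a difference of 0.88 (SE 0.28, limma adjusted p = 0.0642). Snora17, in the noncoding gene Snhg7, ran from 6.58 to 8.38 and from 7.81 to 9.14, a difference of 0.83 (limma adjusted p = 0.0640). Snord65, in the noncoding gene 2410006H16Rik, differed by 0.84 with limma adjusted p = 0.116, and NICD-OE-HEC 1, at 7.08, lay inside the Control range of 6.54 to 8.32. Snora64, in the ribosomal protein gene Rps2, differed by 0.81 and Snora81, in the translation factor gene Eif4a2, by 0.75, with limma adjusted p of 0.106 and 0.093. In all of these the groups overlapped.

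Of the 9 members below 0, none passed limma's test, at an unadjusted p under 0.05 either. Snord8 ran from 8.22 to 10.15 in Control (median 8.93) and from 8.51 to 9.38 in NICD-OE-HEC (median 8.84). Control 1, at 10.15, and Control 2, at 9.76, were above all NICD-OE-HEC arrays, and Control 4 was below them all. The difference was -0.22 (SE 0.27, limma adjusted p = 0.726). Snord17 differed by -0.19, Snord71 by -0.16, Snord67 by -0.13 and Snord96a by -0.04, with limma adjusted p from 0.641 to 0.956. Among box H/ACA members only Snora35, in the serotonin receptor gene Htr2c, was below 0, by -0.02 at a level of 3.08 under the array median.

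The Scarna members had the smallest median difference of the 3 classes, and differences between the classes were not tested. Scarna2, which RefSeq places outside other genes, ran from 10.46 to 11.31 in Control (median 10.59) and from 10.62 to 11.71 in NICD-OE-HEC (median 11.09). It had the largest difference of its class, 0.38 (SE 0.19, limma adjusted p = 0.279). Scarna13 differed by 0.33, Scarna10 by 0.22, Scarna3b by 0.21 and Scarna6 by 0.06. Scarna8, Scarna3a and Scarna9 differed by -0.12, -0.06 and -0.05. The groups overlapped for all 8, and Scarna8 and Scarna3a lay below the array median in both groups. Control 3 and 4 were low here too, with class means of 6.18 and 5.98 against 6.38 to 6.79 on the other controls.

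Members with a role in cutting the ribosomal RNA precursor, picked after their values were seen, were above 0 and not called. Snora73b, a copy of U17, which is needed for small-subunit ribosomal RNA, ran from 9.38 to 10.98 in Control and from 10.16 to 10.66 in NICD-OE-HEC. The difference was 0.43 (SE 0.22, limma adjusted p = 0.280), and its near-identical neighbour Snora73a differed by 0.46. Probes may not tell these copies apart, and the same holds for pairs such as Snord15a and Snord15b. Snord118, known as U8 and needed for the large-subunit ribosomal RNAs, differed by 0.50 (SE 0.31, limma adjusted p = 0.389). Snord22 (U22) differed by 0.32, Snord13 (U13) by 0.33 and Snord14e, a copy of U14, by 0.56, with limma adjusted p of 0.464, 0.515 and 0.0573. The other U14 copy on the array, Snord14a, differed by 0.07 (limma adjusted p = 0.875). Among the members in Rpl13a, Snord32a differed by 0.15, Snord33 by 0.27, Snord34 by 0.11 and Snord35a by 0.48, and none was called. Snord32a took only 2 values over the NICD-OE-HEC arrays, 12.54 on NICD-OE-HEC 4 and 12.74 on the other 5, close to the highest value on the array.

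Host genes were measured for 79 of the members that lie inside a single gene, with 59 distinct hosts. Of these hosts 15 rose and 3 fell, beside the 4.89% and 5.59% of all probe sets. Most hosts lay above the array median, where calls were more frequent: 1097 of 12759 such probe sets rose and 1325 fell. Without Control 6 there were 11 calls among hosts, and without Control 3 and 4 there were 5, of which 4 were higher. In the full comparison 37 hosts had a difference above 0 and 22 below. The median host difference was 0.11, with a range from -0.55 to 0.91. In 57 of 79 pairs the difference of the snoRNA was above that of its host, and in 54 pairs both had the same sign. Pearson's r over the 79 pairs was 0.40 and Spearman's rho 0.36, given as a description because pairs share hosts and all pairs share the 12 arrays. In 23 pairs the snoRNA was above 0 while the host was below. The pair counts and correlations include hosts below the array median, such as Rpl10, Rpl3 and Snhg7. Differences of such hosts cannot be told from background.

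Noncoding hosts and protein-coding hosts both held members that were higher. The 12 noncoding hosts had a median difference of 0.24, with 4 called higher and 0 lower, and their 19 members a median of 0.50. The 47 protein-coding hosts had a median of 0.11, with 11 called higher and 3 lower, and their 60 members a median of 0.34. Over the whole array 4.89% of probe sets rose and 5.59% fell, and of the 12759 above the array median 1097 rose and 1325 fell. Without Control 3 and 4 only 5 host calls were left over both types. A difference between the host types was not tested. The 32 members in ribosomal protein genes had a median of 0.43, and the 13 such host genes on the array a median of 0.05. Several of those host probe sets lay below the array median, such as Rps2 at 2.60, Rpl3 at 2.95 and Rpl10 at 1.82 in Control. A difference cannot be told from background there, so the host median of 0.05 says little about these genes.

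**Figure D5:**
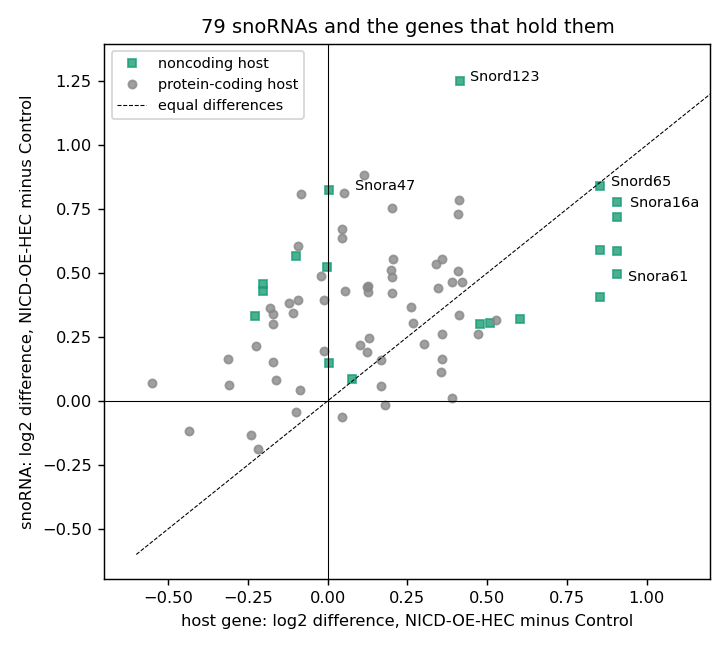
Log2 difference NICD-OE-HEC minus Control of each snoRNA (vertical axis) against that of the gene that holds it (horizontal axis) for 79 pairs, squares for noncoding and circles for protein-coding hosts, with the line of equal differences. Of the pairs 57 lie above the line, and the 4 members of Snhg12 lie below it at a host difference of 0.91.

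Some hosts rose by as much as their members differed or more, and other hosts did not pass the test. 2410006H16Rik, a noncoding gene that holds Snord49a, Snord49b and Snord65, rose by 0.85 (SE 0.13, limma adjusted p = 5.1e-04) and its members differed by 0.41 to 0.84, none of them called. Snhg1 rose by 0.60 (SE 0.15, limma adjusted p = 0.015), beside 0.32 for its member Snord22. Snhg3 differed by -0.20 (limma adjusted p = 0.194) while Snora73a and Snora73b differed by 0.46 and 0.43, and Snhg7 differed by 0.01 beside 0.83 for Snora17. Rps3a1, a ribosomal protein gene, differed by 0.05, and its members Snord73a and Snord73b by 0.63 and 0.67. Snhg7 (2.92 in both groups) and Rps3a1 (3.54 and 3.59) lay below the array median, so their differences do not show whether these hosts changed. Of the hosts that fell, Haus6, a spindle gene, fell by 0.43 (SE 0.08, limma adjusted p = 0.0026) and its member Scarna8 differed by -0.12. Atg16l1, an autophagy gene, fell by 0.31 and its member Scarna6 differed by 0.06.

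Of the core proteins of snoRNA complexes, 1 of the 7 measured passed the test, beside 10.5% of all probe sets and 19.0% of those above the array median. Nop58, a core protein of box C/D complexes that itself hosts Snord11 and Snord70, rose by 0.41 (SE 0.10, limma adjusted p = 0.0137). Fbl differed by 0.43 (limma adjusted p = 0.063) and Nop56, which hosts Snord57 and Snord110, by 0.13. Of the 4 box C/D core proteins listed, these 3 were on the array. The box H/ACA core proteins Dkc1, Gar1, Nhp2 and Nop10 differed by 0.16, 0.16, 0.39 and 0.29 and none was called. Of 16 factors for snoRNA complex assembly and Cajal bodies 0 were called, with a median of 0.03.

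Calls in the lists of ribosome production, RNA trimming and noncoding hosts are read beside the 4.89% of all probe sets that rose and the 5.59% that fell. Most listed genes lay above the array median, where 1097 of 12759 probe sets rose and 1325 fell. Of 37 genes for RNA polymerase I and ribosome biogenesis, 2 rose and 0 fell, with a median of 0.04. They were Ncl, nucleolin, by 0.36 (SE 0.11, limma adjusted p = 0.042) and Gnl3, nucleostemin, by 0.39 (SE 0.10, limma adjusted p = 0.015), and both also host members. Of 19 genes of the exosome and RNA trimming, Exosc3 alone rose, by 0.36 (SE 0.09, limma adjusted p = 0.013), and the list's median was -0.03. Of 24 snoRNA-hosting noncoding genes, Snhg12, Snhg6, Snhg1 and Snhg18 rose and 0 fell, with a median of 0.06.

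No other listed structural RNA passed limma's test at an adjusted p under 0.05. Of 12 further noncoding RNA genes 0 were called and 8 were above 0, with a median of 0.14. Of 12 genes that RefSeq types as other short structural RNA, some of which may be the same genes, 0 were called. Their median was 0.18 and 10 were above 0. Among the controls their mean, like that of the snoRNAs, was lowest on Control 4 (7.76) and Control 3 (7.92). It was highest on Control 2 (8.37). Rmrp, an RNA of ribosomal RNA processing, differed by 0.28 (limma adjusted p = 0.133), with Control 3 at 11.79 and Control 4 at 11.73, the lowest of the controls, whose highest was 12.32. Of 8 further genes that RefSeq types as snoRNA 0 were called and 6 were above 0, but 7 of them in Control and 6 in NICD-OE-HEC lay below the array median. Of 535 microRNA genes 3 rose and 9 fell, and 257 were above 0, but only 92 had a mean above the array median.

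Markers of other cells moved with the groups, and their part in the snoRNA values was not tested. Neutrophil markers had a mean level of 3.34 to 4.84 on Control arrays and 5.26 to 7.65 on NICD-OE-HEC arrays, and 7 of 8 rose. Hepatocyte markers ranged from 5.98 to 7.06 and from 6.35 to 7.64, and 3 of 9 rose. Cholangiocyte markers ranged from 3.96 to 4.34 and from 4.61 to 5.06, and 4 of 5 rose. Of 8 stellate cell and fibroblast markers 3 rose and 1 fell, with means of 4.98 to 6.19 and 5.90 to 6.40, and of 8 Kupffer cell markers 1 rose, with means of 7.46 to 8.75 and 7.70 to 9.19. None of 7 lymphocyte markers (means of 3.19 to 3.67 and 3.09 to 4.07) or 4 erythroid markers (2.36 to 3.07 and 2.17 to 3.80) was called by limma. Within Control, the sinusoidal marker mean was highest on Control 4 (11.31) and Control 3 (11.30), the arrays with the lowest snoRNA means, and lowest on Control 2 (11.04), the array with the highest. The snoRNA means ran from 6.67 to 7.77 over the controls. Among the other cell marker lists, only neutrophil markers had their lowest Control mean on Control 4 (3.34), followed by Control 3 (3.42). The lists of further noncoding RNA genes and of other short structural RNA, which are not cell markers, had the same lowest arrays. The hepatocyte mean was lowest on Control 5 (5.98) and the Kupffer cell mean on Control 6 (7.46). These orders were not tested. In bulk RNA fewer cells of a type and less RNA per cell cannot be told apart.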

How the data were processed

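The deposited values are log2 expression, 1 per probe set and array, which the authors made with RMA, per the submitters' processing notes. RMA corrects background, equalises array quantiles and summarises probe sets. Software and chip definition were not stated in the labels. Gene symbols came from the platform annotation, and 723 of 25428 probe sets had none. Differences were fitted over all probe sets in R 4.3.3 by lmFit and eBayes of limma 3.58.1 (2 groups, no covariates), two-sided, with Benjamini-Hochberg adjustment, and an adjusted p under 0.05 was a call. No probe set was filtered out. The number of arrays, 6 per group, limits the precision. The labels name the samples of a group as biological replicates.

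Members, gene lists and alternatives were chosen with earlier results of these data known. Named were called members, the 5 largest differences each way and the 5 highest mean levels per class, core proteins, up to 4 called genes per list, and hosts. Others were added after their values were seen. Hosts are genes whose span holds the member in RefSeq GRCm38.p6. The table gives no strand, so the planned same-strand rule was not applied. On simulated data for NICD-OE-HEC against Control with 25428 probe sets, the fit recovered 37.3% of 67 changes of log2 0.5, 92.5% of 67 of log2 1 and 100% of 66 of log2 2. The changed probe sets were drawn from the whole array and each array was simulated independently. The snoRNAs had a median SD of 0.54 in Control and 0.34 in NICD-OE-HEC, against 0.20 over all probe sets. They also moved together on single arrays, so these rates need not hold for them.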

Additional observations from a re-analysis of the deposited data

Results flagged for a closer look

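A single array far from the other 5 of its group was found in 5 of 72 groups checked, where chance gives about 1 in 20. Snord65 was low on NICD-OE-HEC 1, at 7.08 against 8.31 to 8.79 on the others. Snord17 was low on NICD-OE-HEC 4, at 9.17 against 9.95 to 10.34, and Snord32a was low on the same array, at 12.54 against 12.74 on the other 5. Those 5 values of Snord32a were equal, so a gap of any size would have been flagged. The rate of 1 in 20 does not hold for such ties. Scarna8 was low on Control 4, at 2.70 against 3.05 to 3.26, below the array median. Scarna9 was high on NICD-OE-HEC 2, at 8.25 against 7.67 to 7.87.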

How the results depend on the processing

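The count of called snoRNAs moved with the processing, and 0 were called lower in any fit. From 7 (4 box C/D, 3 box H/ACA) it went to 15 (8 and 7) with the dimmest 50 percent of probe sets left out, 21 (11 and 10) with array weights, 18 (9 and 9) with the replicate number as a block, and 25 (14 and 11) without Control 2 and NICD-OE-HEC 4. Calls over the whole array moved too, from 2666 to between 1613 and 3318 over all alternatives. Whether members gained calls beyond the array as a whole was not tested. Without Control 3 and 4, chosen after seeing the data, it was 1 (1 and 0), with 1613 calls over the whole array and 5 among host genes. Leaving out single arrays gave 3 to 29 snoRNA calls, 3 to 15 box C/D, 0 to 13 box H/ACA, 0 to 1 Scarna and 11 to 19 host genes, beside 2107 to 2970 calls over the whole array. The highest came without Control 2 (29) and the next without NICD-OE-HEC 1 (15), and 3 were left without Control 3, Control 4, NICD-OE-HEC 3 or NICD-OE-HEC 6. Box H/ACA had 0 calls without any of these 4 or NICD-OE-HEC 5, and host genes had 11 without Control 6. Where an absolute difference of 0.5 or more (log2) was also required, the whole array had 1764 calls. The median of all probe sets was -0.029 with the dimmest 50 percent left out. Against the 75th percentile of the array, 69.2% of box C/D, 70.6% of box H/ACA and 50% of Scarna members were above the reference. The cause of these changes was not tested. Same-numbered arrays correlated from -0.10 to 0.22 in their deviations over all probe sets and from -0.18 to 0.62 over the snoRNAs. Not every pair was above 0.1 on either measure, and the main fit used no pairs. Over the snoRNAs, replicates 5 and 6 stood at 0.62 and 0.53. Whether same-numbered arrays shared a preparation was not tested. Of 688 values of single genes under alternatives, 619 kept their side of the threshold, 37 lost the call, 32 gained it and 0 called values changed sign. Among the 619, 27 values of 10 uncalled members changed sign. The planned search for box C letters in snoRNA sequences was not run, because no snoRNA was matched in the sequence table used here.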
